A study of Mus musculus with 2 samples.

Results

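The genes described here are 34 that carry out or control the synthesis of cholesterol and fatty acids. They were taken by symbol from the 25828 features measured in 2 libraries of iMPCs, or induced myogenic progenitor cells, which are mouse embryonic fibroblasts turned by MyoD and small molecules into dividing cells that resemble muscle stem cells, and each symbol was found once. By role they comprised 6 genes of the mevalonate steps, 11 of the later sterol steps, 7 of regulation and sterol transport and 10 of fatty acid synthesis, elongation and desaturation. A mean level of 5 CPM (counts per 1000000 counts of the library) over the 2 libraries was reached by 32 of the 34. The other two were Tm7sf2, a sterol reductase gene, and Abca1, the cholesterol exporter gene, which are described by their values alone.

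Cells build cholesterol from acetyl-CoA through mevalonate and isoprenoids to squalene, which is closed to lanosterol and trimmed step by step. When sterols in the membrane of the endoplasmic reticulum are scarce, Scap carries the precursors of the transcription factors encoded by Srebf1 and Srebf2 to the Golgi, where they are cut and freed to switch on the genes of sterol and fatty acid synthesis, and Insig proteins hold Scap back when sterols are plentiful. Muscle progenitors need membrane lipid to divide and to fuse, and muscle fibres burn fatty acids as fuel.

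Both libraries came from cells of the genotype Tg:Pax7-nGFP/C57BL6;DBA2, which carry a green fluorescent reporter of Pax7, the satellite cell transcription factor. Fibroblasts received synthetic MyoD-mRNA in 4 transfections, in medium with B18R, a decoy receptor for interferon. The F/R/C clone was made and kept in Forskolin, RepSox and CHIR, and the F/R/C+CP clone in the same molecules with CP, a JAK inhibitor (the library with CP). Each group was a single library of 1 clone, strained to take out myotubes and debris, so the effects of treatment, clone and library preparation cannot be told apart, and the differences have no replicate check. No test was run, and each interval, given in square brackets, is a 95% interval of counting error only.

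Depth differed between the libraries. The quality limits of the study, as applied here, kept 3962 of 5541 F/R/C barcodes and 10834 of 12000 F/R/C+CP barcodes. Their medians were 7112 and 21844 unique molecular identifiers (UMIs). The paper shows fewer cells for its MyoD-mRNA clone made without CP, so the kept barcodes may not be its own set. The lowest UMI count of a kept barcode was 500 in F/R/C and 12097 with CP, and 11 kept barcode sequences occurred in both libraries. Kept barcodes with at least 2000 UMIs (3584 and 10834) were sorted into 4 gates in a fixed order: the top 10% of a library by Acta1 (skeletal actin), the top 10% by Myog (the myogenin gene of committed myocytes), the top 10% by the summed level of 12 cell cycle genes, and then any barcode with a Pax7 UMI. The first 3 gates held 358 F/R/C barcodes each and 1083 F/R/C+CP barcodes each, and the Pax7-positive gate held 1531 and 5170. Of the 6 satellite cell markers, Pax7 stood at 158 CPM in F/R/C against 81.8 CPM with CP, Fgfr4 at 102 and 86.8, Msc at 63 and 14.4, and Myf5 at 45.3 and 3.35. Calcr and Chodl, markers of resting satellite cells, were at or under 1.02 CPM in both. Muscle RNA was present outside the Acta1-high gate: Pax7-positive barcodes held Acta1 at 1130.2 CPM with CP and at 122 CPM in F/R/C. The part of RNA set free from other cells in these levels, and in the contrasts between gates, was not tested. The 6 adipocyte markers, whose cells make much fatty acid, summed to 1.22 and 2.65 CPM over all kept barcodes, with Adipoq, the most specific of them, at 0.0359 and 0.0479 CPM.

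The promoters of the cholesterol enzymes are known to carry short elements that the freed factors and their partners recognise, so the letters of 4 such elements were looked up in the RefSeq promoter windows (GRCm38.p6, 250 bases before to 50 after a start, both strands), which were present for 27 of the 34 genes. The sequence CCAAT, the partner element read by the factor NF-Y, occurred in the windows of 14 of 14 matched mevalonate and sterol enzyme genes, against 41.1% of all genes, and in 4 of 7 matched fatty acid genes. GGGCGG, the GC box, occurred in 13 of those 14 enzyme genes and in 3 of the 7 fatty acid genes, against 38.2% of all genes. The sterol element TCACNCCAC occurred in 1 of the 27 genes and 1.44% of all genes, and TCACGTGA in none of the 27 and 1.12% of all genes. In the 27 genes, no match of one element overlapped a match of another. These are counts of letters, not of bound sites.

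The upstream sequence of Hmgcs1, which encodes the synthase that makes HMG-CoA and whose level differed about 2-fold between the libraries, is shown because its window alone held the sterol element. It lies at chr13:119690151-119690350 on the plus strand, in the 200 bases that end just before the RefSeq start and outside the annotated gene. Capitals mark the sterol element and each CCAAT, which reads ATTGG where it lies on the other strand.
Hmgcs1: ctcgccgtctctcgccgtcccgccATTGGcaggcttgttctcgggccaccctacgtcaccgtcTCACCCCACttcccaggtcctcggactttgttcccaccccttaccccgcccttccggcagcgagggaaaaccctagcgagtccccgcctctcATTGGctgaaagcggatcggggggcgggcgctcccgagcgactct

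Windows of 30 bases round 1 CCAAT a gene are shown for 6 other enzyme genes that were at least 2-fold higher in the F/R/C+CP library over all kept barcodes, and for Ebp, which was not. Each reads along its gene's strand with CCAAT or ATTGG in capitals. They lie at chr13:8885549-8885578 (Idi1, plus strand), chr5:4104709-4104738 (Cyp51, minus), chr8:64733616-64733645 (Msmo1, minus), chrX:72918489-72918518 (Nsdhl, plus), chr1:169969261-169969290 (Hsd17b7, minus), chr9:42264307-42264336 (Sc5d, minus) and chrX:8193550-8193579 (Ebp, minus).
Idi1: tgcctccagctgATTGGcgagcccgggcat
Cyp51: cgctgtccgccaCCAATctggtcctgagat
Msmo1: gagtggggcggaCCAATtacgacaggcgag
Nsdhl: aagactagcctcATTGGgcaaaatcatgct
Hsd17b7: tgccgagtcgcgATTGGcgggcctaacgcg
Sc5d: cgccggctgctgATTGGccggctgcctgca
Ebp: atccctgtactgATTGGttcgtcagattcg
The matches shown lay 20 to 73 bases before the RefSeq start, and 5 of the 7 genes, all but Cyp51 and Sc5d, held further matches in their windows.

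The question of the first comparison was how the lipid synthesis genes stood in cells made with the JAK inhibitor against cells made without it. Over all kept barcodes, each of the 16 tested mevalonate and sterol enzyme genes was higher in the F/R/C+CP library, with a median log2 ratio of 0.89 against -0.16 over the 9851 features tested. Of the 16, 7 were at least 2-fold higher and 0 at least 2-fold lower, where 4.87% and 7.74% of all features were. Their summed level was 293 CPM in F/R/C against 545 CPM with CP, including Tm7sf2. Features at 50 CPM or more had a median ratio of -0.12, so the shift of the library as a whole was small and downward.

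Idi1, which encodes the isomerase that makes the reactive isoprenoid unit, stood at 24.9 CPM in F/R/C against 72.2 CPM with CP, 2.9-fold higher (log2 1.54 [1.43 to 1.65]). Hmgcs1 stood at 29.6 and 61.4 CPM, 2.07-fold higher (log2 1.05 [0.95 to 1.15]). Fdps, the gene of farnesyl diphosphate synthase, stood at 32 and 57.7 CPM (log2 0.85 [0.75 to 0.95]). These genes mark the beginning and the end of the mevalonate steps, and the counting intervals of their levels did not overlap between the libraries. Between them, Pmvk (phosphomevalonate kinase) stood at 27.4 and 43 CPM, a log2 ratio of 0.65 [0.55 to 0.76]. Mvd, the decarboxylase gene, stood at 9.05 and 15.2 CPM (0.75 [0.57 to 0.94]), and Mvk, the mevalonate kinase gene, differed least, at 12.7 and 16.2 CPM (0.35 [0.19 to 0.51]).

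Among the sterol steps, Cyp51, which encodes the lanosterol demethylase, stood at 24.7 and 63.7 CPM, 2.58-fold higher with CP (log2 1.37 [1.26 to 1.48]). Msmo1, the gene of the methyl sterol oxidase that acts next to it, stood at 15.1 and 38.6 CPM (log2 1.35 [1.21 to 1.5]). Its partner in the removal of the same methyl groups, Nsdhl, stood at 7.4 and 19 CPM (1.36 [1.16 to 1.57]). All of these are genes of the removal of methyl groups from lanosterol. Hsd17b7, the ketone reductase gene of that stretch, stood at 14.2 and 28.7 CPM (1.01 [0.87 to 1.16]), and Sc5d, the desaturase gene, at 6.86 and 15.7 CPM (1.20 [0.99 to 1.41]). Upstream of these, Sqle, the squalene epoxidase gene, stood at 17.3 and 25.5 CPM (0.56 [0.42 to 0.69]) and Lss, the lanosterol synthase gene, at 3.59 and 6.8 CPM (0.92 [0.63 to 1.23]). Dhcr7, which encodes a reductase at the very end of the pathway, stood at 6.28 and 9.59 CPM (0.61 [0.39 to 0.84]). Smaller differences were measured for Fdft1, the squalene synthase gene at the branch point to sterols, at 34.4 and 41.7 CPM (0.28 [0.18 to 0.37]), and for Ebp, the sterol isomerase gene, at 25.9 and 28 CPM (0.11 [0.0037 to 0.23]). Tm7sf2 stood at 1.51 and 2.13 CPM, from 42 and 578 UMIs.

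**Figure D1:**
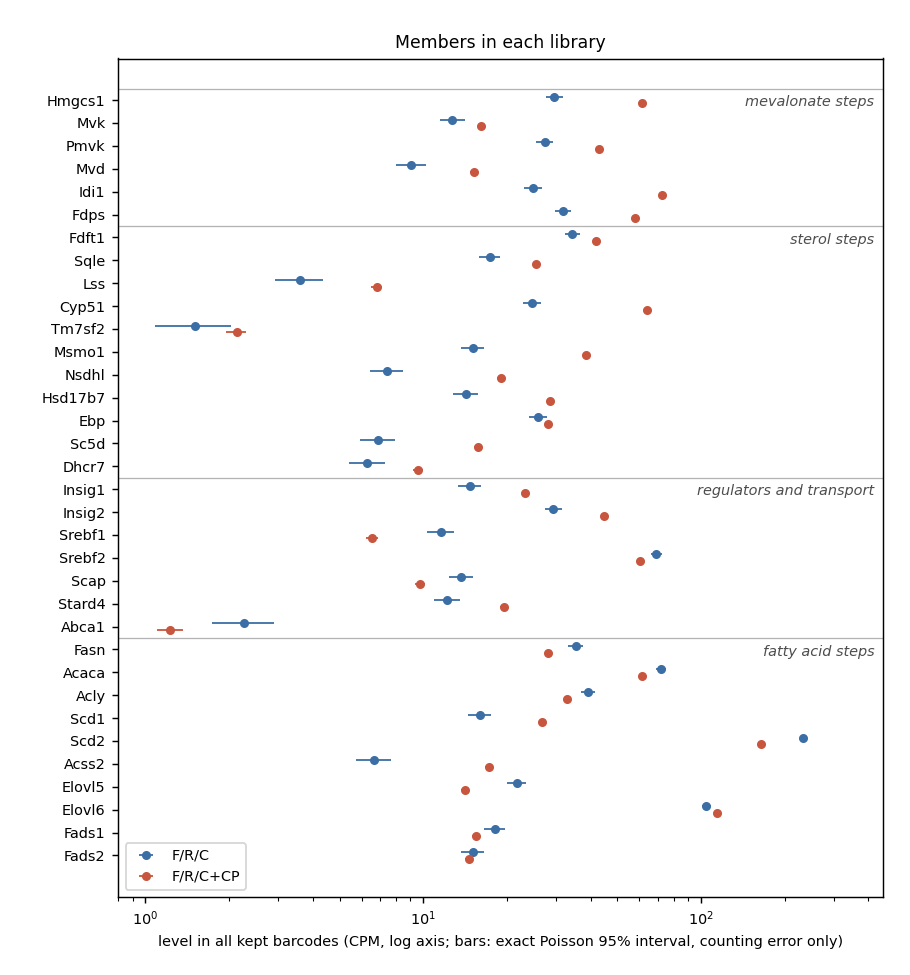
Level of each of the 34 genes over all kept barcodes (horizontal axis, CPM, log scale) in the F/R/C library (blue) and the F/R/C+CP library (red), with exact Poisson 95% intervals that cover counting error only. The red points lie to the right of the blue ones for every mevalonate and sterol step, most for Idi1 (24.9 and 72.2 CPM), while the fatty acid steps go both ways.

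Regulators went in both directions. Insig1, itself a target of the sterol factors, stood at 14.7 CPM in F/R/C against 23.2 CPM with CP (log2 0.66 [0.51 to 0.81]). Insig2, the second Scap anchor gene, stood at 29.4 and 44.7 CPM (0.60 [0.50 to 0.71]), and Stard4, which encodes a carrier of cholesterol inside cells, at 12.2 and 19.5 CPM (0.67 [0.52 to 0.84]). The genes of the transcription machinery were lower instead. Srebf1 stood at 11.6 and 6.55 CPM (-0.82 [-0.99 to -0.64]) and Scap at 13.7 and 9.74 CPM (-0.49 [-0.65 to -0.33]). Srebf2, whose protein acts mostly on the cholesterol genes, stood at 69 and 60.0 CPM (-0.20 [-0.27 to -0.13]), close to the shift of all features. Abca1, which is switched on when sterols are in excess, stood at 2.26 and 1.23 CPM (-0.88 [-1.27 to -0.47]), from 63 and 334 UMIs.

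The fatty acid genes went in both directions. Of the 10, 3 were higher and 7 lower with CP, with a median log2 ratio of -0.23, near that of all features. Among barcodes of 12000 to 20000 UMIs in both libraries this median turned to 0.17. Acss2, which encodes the cytosolic enzyme that makes acetyl-CoA from acetate, stood at 6.64 and 17.2 CPM and was the one past 2-fold, at 2.59-fold (log2 1.37 [1.16 to 1.59]). Acly, Acaca and Fasn, which make the acetyl-CoA, the malonyl-CoA and the chain itself, were each a little lower. Acly was at 39.2 and 33 CPM (-0.25 [-0.34 to -0.15]), Acaca at 71.7 and 61 CPM (-0.23 [-0.30 to -0.16]), and Fasn at 35.3 and 28 CPM (-0.33 [-0.43 to -0.24]). The desaturase paralogs Scd1 and Scd2 stood on opposite sides: Scd1 stood at 16 and 26.8 CPM (0.75 [0.61 to 0.89]) and Scd2 at 232 and 164 CPM (-0.50 [-0.54 to -0.47]). The elongase gene Elovl6 was at 104 and 114 CPM (0.13 [0.078 to 0.19]) and Elovl5, which acts on longer polyunsaturated chains, at 21.7 and 14.2 CPM (-0.62 [-0.74 to -0.49]). Fads1 and Fads2, the desaturase genes of polyunsaturated fatty acids, differed little, with Fads1 at 18.1 and 15.4 CPM (-0.23 [-0.36 to -0.094]) and Fads2 at 15.1 and 14.6 CPM (-0.047 [-0.19 to 0.10]). Scd1 and Scd2 are similar in sequence and are neighbours, so reads of one may have been counted for the other, and Fdps, Srebf2, Acaca, Elovl6 and Tm7sf2 overlap another measured gene on the same strand in the GENCODE vM21 annotation.

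Split by gate, the difference was present in the Pax7-positive, cycling and Myog-high barcodes and small in the top 10% by Acta1. In Pax7-positive barcodes the median of the 16 enzymes was 0.98, with 15 higher and 7 past 2-fold, where 6.69% of features were 2-fold higher and 7.47% lower (median -0.13). In cycling barcodes it was 1.02, with 16 higher and 9 past 2-fold, where 6.88% were 2-fold higher and 8.54% lower (median -0.11). None of the 16 was 2-fold lower in either gate. The Myog-high barcodes gave 1.37, with 16 higher and 12 past 2-fold, where 6.49% were 2-fold higher and 9.75% lower (median -0.14). In Acta1-high barcodes the median was 0.16, with 10 higher and 0 past 2-fold, where 6.93% were 2-fold higher and 8.47% lower (median -0.046). Of the 16 enzymes, 15 were higher in all of the first 3 gates and 7 were 2-fold higher in each of them (Hmgcs1, Idi1, Lss, Cyp51, Msmo1, Nsdhl and Sc5d). The one enzyme not higher in all 3 was Ebp, at 32.7 and 31 CPM in Pax7-positive barcodes (log2 -0.079 [-0.23 to 0.079]). Whether the contrast itself differs between gates was not tested.

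Idi1 shows the pattern by level. In F/R/C it stood at 25 CPM in Pax7-positive, 21.1 in cycling, 23.6 in Myog-high and 28.9 in Acta1-high barcodes. In F/R/C+CP it stood at 66, 63.2, 118 and 47.6 CPM. The F/R/C library was flat across the gates, and the F/R/C+CP library was highest in Myog-high and lowest in Acta1-high barcodes. Msmo1 took the same course with CP (34.9, 34.2, 68.8 and 22.2 CPM), but in F/R/C it was highest in Acta1-high barcodes (11, 15.3, 15.3 and 25.3 CPM). The log2 ratio of Acss2 between the libraries was 1.37, 1.32, 1.37 and 1.37 in the 4 gates. Its F/R/C level was low, at 10.2 CPM in Acta1-high barcodes, so how even the ratio was is not resolved. Scd1 was higher with CP in Pax7-positive (1.22 [0.95 to 1.49]) and cycling barcodes (1.59 [0.98 to 2.28]), but stood at -0.10 [-0.37 to 0.18] in Acta1-high ones.

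**Figure D2:**
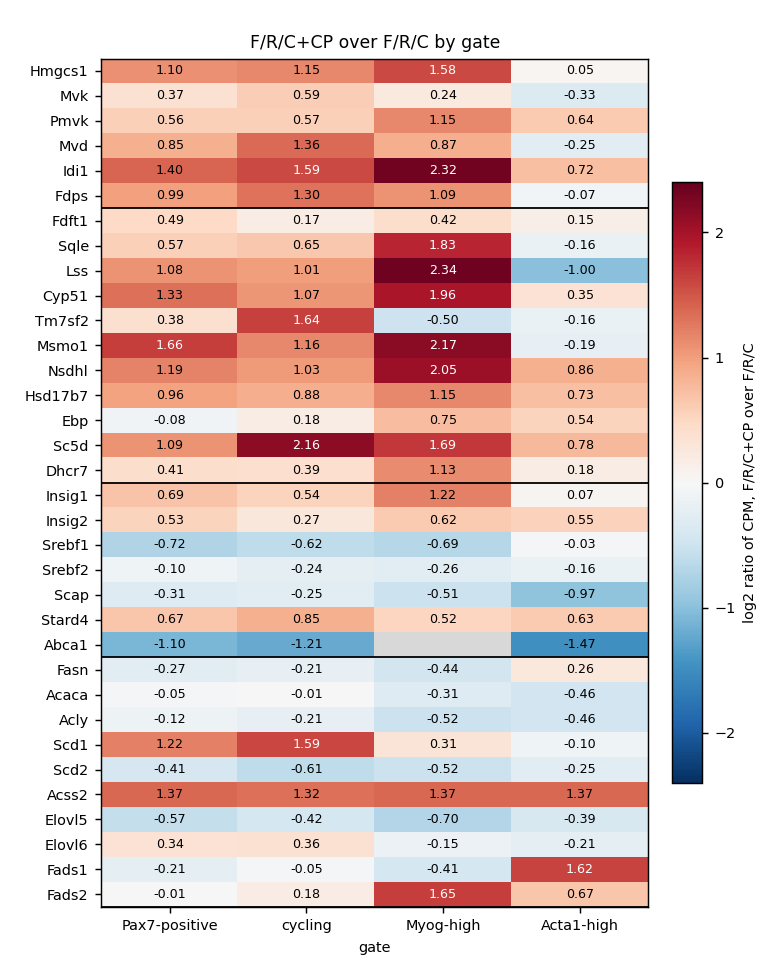
Log2 ratio of the CPM with CP to that in F/R/C for each of the 34 genes (rows, by role, divided by black lines) in the 4 gates (columns), with red for higher and blue for lower with CP. Most mevalonate and sterol rows are red in the first 3 gates (Idi1 2.32 and Msmo1 2.17 in Myog-high barcodes), with Ebp in Pax7-positive (-0.079) and Tm7sf2 in Myog-high barcodes (-0.50) below 0, and most are paler in Acta1-high barcodes, where Lss is blue (-1.0). The grey cell is Abca1, with under 10 UMIs in that comparison.

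Several measures moved with the same contrast. The 4 melanocyte markers summed to 0.793 CPM in F/R/C against 20.3 CPM with CP in Pax7-positive barcodes, to 0 and 43.8 CPM in cycling, to 0.332 and 1.59 CPM in Myog-high and to 0.328 and 11 CPM in Acta1-high barcodes. The 8 muscle markers summed to 435 and 4006 CPM in Pax7-positive barcodes, and the part of either list in the difference was not tested. Among barcodes of 12000 to 20000 UMIs in both libraries the enzyme medians were 0.89 over all kept, 0.86 in Pax7-positive, 1.0 in cycling, 0.94 in Myog-high and 0.076 in Acta1-high barcodes. The Myog-high value was thus lower than its 1.37 without the depth limit, and only 31 to 45 F/R/C barcodes entered each gate there.

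The next comparison asked whether barcodes high in cell cycle genes held more RNA of these genes than the Pax7-positive gate. The values were nearly level: the enzyme medians for cycling over Pax7-positive barcodes were -0.0028 in F/R/C and 0.00095 with CP, and the fatty acid medians -0.064 and 0.030. Over all features, 1.49% were 2-fold higher and 1.49% 2-fold lower in F/R/C, and 1.44% and 1.39% with CP. Sc5d alone among the 32 tested genes passed 2-fold, in F/R/C, at 7.76 CPM in Pax7-positive and 3.01 CPM in cycling barcodes (log2 -1.37 [-2.48 to -0.42], the latter from 10 UMIs), against -0.30 [-0.46 to -0.14] with CP. Srebf2 was higher in cycling barcodes of both libraries, at 67.8 and 89 CPM in F/R/C (log2 0.39 [0.19 to 0.59]) and at 63.2 and 75.4 CPM with CP (0.26 [0.19 to 0.33]). Scd1 was lower in both, at -0.70 and -0.32, while Scd2 was higher, at 0.27 and 0.064. Elovl6 (0.065 and 0.088), Fasn (0.054 and 0.12) and Acaca (0.0096 and 0.049) were nearly level between the gates.

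Commitment was followed by setting Myog-high against Pax7-positive barcodes within each library. Over all features the medians were -0.26 in F/R/C, with 7.88% 2-fold higher and 22.5% lower, and -0.27 with CP, with 5.5% and 21.7%. Of the 32 tested genes 1 was 2-fold higher and 7 lower in F/R/C, and 1 and 7 with CP. Fdft1 was the gene that was higher, at 26.2 CPM in Pax7-positive and 65.1 CPM in Myog-high barcodes of F/R/C (log2 1.31 [1.05 to 1.58]) and at 36.7 and 87.4 CPM with CP (1.25 [1.18 to 1.32]). Ebp, further along the same pathway, was lower, at 32.7 and 6.31 CPM in F/R/C (-2.37 [-3.12 to -1.71]) and 31 and 10.6 CPM with CP (-1.55 [-1.72 to -1.37]). Single steps of cholesterol synthesis thus differed in opposite directions between these gates, and did so in both clones.

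The other enzymes had unlike values in the clones. The median of the 16 was -0.11 in F/R/C, with 5 above 0, and 0.29 with CP, with 12 above 0. Of all features, 34.9% in F/R/C and 32.6% with CP were above 0, so the F/R/C count was near that share. Idi1 stood at -0.081 [-0.48 to 0.30] and 0.83 [0.77 to 0.89], Cyp51 at -0.20 [-0.60 to 0.19] and 0.43 [0.36 to 0.50], and Nsdhl at -0.053 [-0.80 to 0.64] and 0.81 [0.69 to 0.93]. Sqle was lower in F/R/C (20.01 and 6.98 CPM, -1.52 [-2.24 to -0.87]) and nearer to level with CP (29.6 and 24.8 CPM, -0.26 [-0.38 to -0.14]). Mvd and Hsd17b7 were higher in both, at 0.80 and 0.81 and at 0.72 and 0.91. Each contrast within a clone rests on 1 library, and the difference between the clones was not tested.

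Genes of polyunsaturated fatty acids were much lower in Myog-high barcodes. Fads1 stood at 26.1 CPM in Pax7-positive and 3.99 CPM in Myog-high barcodes of F/R/C (log2 -2.71 [-3.68 to -1.88]), and at 22.5 and 2.99 CPM with CP (-2.91 [-3.24 to -2.59]). Fads2 was found at 22.4 and 0.997 CPM in F/R/C (-4.49 [-6.78 to -2.93], the latter from 3 UMIs) and at 22.2 and 3.14 CPM with CP (-2.82 [-3.15 to -2.51]). Elovl5, which lengthens the products of both, stood at -1.61 [-2.21 to -1.06] and -1.74 [-1.98 to -1.51]. Of the 10 fatty acid genes, 3 were 2-fold lower in F/R/C (these 3), close to the share of 22.5% over all features, and 5 with CP (these with Scd2 and Elovl6), where 21.7% of all features were. Srebf1 was lower as well, at 14.2 and 5.98 CPM (-1.25 [-2.04 to -0.54]) and 8.64 and 3.71 CPM (-1.22 [-1.52 to -0.92]). Abca1 gave 0 UMIs in F/R/C and 2 with CP in Myog-high barcodes, against 32 and 151 in Pax7-positive ones.

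**Figure D3:**
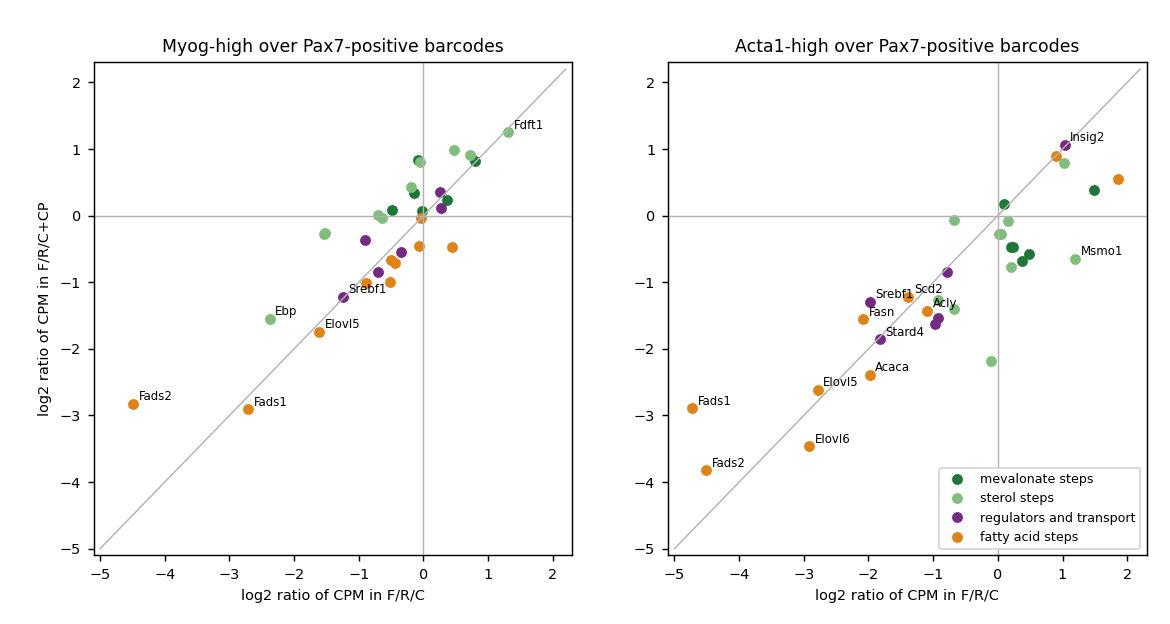
Log2 ratio of CPM for Myog-high (left) and Acta1-high (right) over Pax7-positive barcodes, in F/R/C (horizontal axis) and F/R/C+CP (vertical axis), for the 32 tested genes coloured by role, with the line of equal ratios. Most fatty acid genes (orange) lie at the lower left of the right panel (Fads1 -4.73 and -2.89), Scd1 and Acss2 apart, and most mevalonate genes lie nearer to 0.

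In the differentiated, Acta1-high barcodes the fatty acid genes were low in both clones. Their medians against Pax7-positive barcodes were -2.03 in F/R/C and -1.97 with CP, with the same 8 of 10 at least 2-fold lower in each, while all features had medians of -0.68 and -0.59. Of the 32 tested genes, 5 were 2-fold higher and 10 lower in F/R/C, and 1 and 15 with CP. Over all features, 9.18% were 2-fold higher and 38.1% lower in F/R/C, and 9.17% and 36.2% with CP. The summed fatty acid level was 648 CPM in Pax7-positive and 224 CPM in Acta1-high barcodes of F/R/C, and 611 and 212 CPM with CP. Elovl6, the elongase gene for palmitate, was found at 121 and 16.1 CPM in F/R/C (log2 -2.92 [-3.36 to -2.50]) and 154 and 13.9 CPM with CP (-3.47 [-3.58 to -3.35]). Acaca stood at 81.6 and 20.7 CPM (-1.98 [-2.37 to -1.61]) and at 78.8 and 15 CPM (-2.39 [-2.50 to -2.28]). The genes that commit carbon to fatty acids and those that lengthen the chain were thus lower together, and Fasn (-2.08 and -1.56), Acly (-1.09 and -1.43) and Scd2 (-1.38 and -1.22) went with them. Elovl5 stood at -2.79 [-3.71 to -1.99] and -2.61 [-2.86 to -2.38]. Fads1 and Fads2 gave 3 UMIs each in Acta1-high barcodes of F/R/C, for ratios of -4.73 [-7.01 to -3.17] and -4.51 [-6.79 to -2.94], and stood at -2.89 [-3.14 to -2.64] and -3.82 [-4.18 to -3.49] with CP. The mitochondrial share of counts was 7.76% in Pax7-positive and 11% in Acta1-high barcodes of F/R/C, and 5.74% and 5.9% with CP, and its part in the Acta1-high values was not tested.

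The remaining pair of fatty acid genes was higher in Acta1-high barcodes. Scd1 stood at 10.8 CPM in Pax7-positive and 39 CPM in Acta1-high barcodes of F/R/C (log2 1.86 [1.48 to 2.24]) and at 25 and 36.4 CPM with CP (0.54 [0.46 to 0.63]). It thus went against its paralog Scd2 in both clones. Acss2 stood at 5.47 and 10.2 CPM (0.90 [0.22 to 1.54]) and at 14.1 and 26.3 CPM (0.90 [0.79 to 1.0]).

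The Insig pair split in the same way. Insig2 was found at 24.7 and 50.5 CPM in F/R/C (log2 1.03 [0.74 to 1.32]) and 35.5 and 74.1 CPM with CP (1.06 [0.99 to 1.13]), higher in Acta1-high barcodes of both clones. Insig1 stood at 17.4 and 9.19 CPM (-0.92 [-1.55 to -0.34]) and 27.9 and 9.62 CPM (-1.54 [-1.68 to -1.39]), lower in both. The remaining regulators and carriers were lower: Stard4 at -1.82 and -1.86, Srebf1 at -1.98 and -1.29, Scap at -0.97 and -1.63, and Srebf2 at -0.78 and -0.84. All features had medians of -0.68 and -0.59, so Srebf2 was near the typical feature.

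Cholesterol enzymes had medians of unlike sign in the clones here. The median of the 16 was 0.18 in F/R/C, with 12 above 0, and -0.47 with CP, with 3 above 0. Over all features the medians were -0.68 and -0.59, with 26.2% and 29% above 0. Both enzyme medians lay above these, with 13 and 10 of the 16 above the median of all features. Relative to the median of features at 50 CPM or more, which was -0.51 and -0.41, the enzyme medians became 0.69 and -0.06. Without the quality filter on barcodes the F/R/C median was -0.22. Mvd was higher in both clones, at 7.05 and 19.7 CPM in F/R/C (1.48 [0.97 to 1.98]) and 12.8 and 16.6 CPM with CP (0.38 [0.25 to 0.51]), as was Hsd17b7 (1.03 [0.58 to 1.46] and 0.79 [0.70 to 0.88]). Hsd17b7 has an additional role in steroid metabolism. Lower in both were Fdft1 (26.2 and 13.8 CPM, -0.93 [-1.43 to -0.46], and 36.7 and 15.3 CPM, -1.27 [-1.38 to -1.15]) and Sqle (-0.68 [-1.22 to -0.18] and -1.40 [-1.54 to -1.27]), the first steps after the isoprenoids. Lss, which acts next, was near level in F/R/C (-0.10 [-1.21 to 0.87]) and lower with CP (-2.18 [-2.52 to -1.85]). Fdft1 was therefore highest in Myog-high and lowest in Acta1-high barcodes of each clone. Hmgcs1 went opposite ways, at 29.4 and 38.1 CPM in F/R/C (0.37 [0.057 to 0.68]) and 63 and 39.3 CPM with CP (-0.68 [-0.76 to -0.61]). Acta1-high barcodes of F/R/C+CP were deep, with a median of 40901 UMIs against 20016 in the Pax7-positive gate, where F/R/C had 8363 and 7218. The part of depth in this was not tested beyond the matched range, which gave 0.56 and -0.31.

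The levels were also followed along the whole range of Acta1, of which the last bin is the Acta1-high gate itself. With barcodes ranked by Acta1 into 10 bins of equal size, the summed fatty acid level of F/R/C stood between 599 and 675 CPM in the first 8 bins, at 366 CPM in the ninth and at 224 CPM in the last. In F/R/C+CP it was lower bin by bin from the third on, from 625 CPM over 459 in the eighth and 318 in the ninth to 212 CPM. The clones thus started and ended at like levels. With CP, Acta1 stood only at 419 CPM in bin 1 and 1547 CPM in bin 8. Between the same bins, median UMIs went from 27435 to 17093 and the summed cell cycle genes from 2395 to 1016 CPM. The part of depth and cycling in the fatty acid levels was not tested. The summed mevalonate and sterol level lay between 258 and 328 CPM throughout in F/R/C, with its highest value in the last bin. In F/R/C+CP it lay between 540.5 and 588 CPM in bins 1 to 8, at 648 CPM in the ninth and at 397 CPM in the last. The first 4 F/R/C bins held no Acta1 UMI, and their order is arbitrary.

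**Figure D4:**
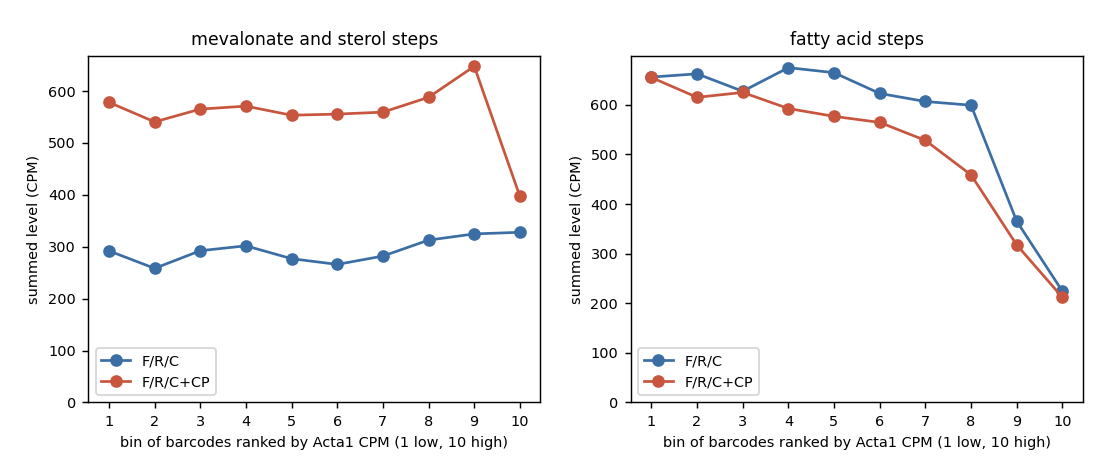
Summed level (CPM) of the mevalonate and sterol genes (left) and the fatty acid genes (right) in 10 bins of barcodes ranked by Acta1 within F/R/C (blue) and F/R/C+CP (red). The cholesterol curve of F/R/C+CP peaks at 648 CPM in bin 9 and stands at 397 CPM in bin 10, while both fatty acid curves end near 200 CPM (224 and 212).

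Whether single enzymes varied together among progenitors was described within the Pax7-positive barcodes. Each barcode was scored by the summed CPM of the mevalonate and sterol genes with the gene in question left out, and the barcodes with the highest scores were set over as many with the lowest (510 at each end in F/R/C and 1723 with CP). All 16 tested enzyme genes were higher at the top end in both libraries, with medians of 0.95 and 1.56 (with 382 and 1292 barcodes at each end, 15 of 16 in F/R/C, where Mvd turned from 0.13 to -0.20, and 16 of 16 with CP), where other features had medians of 0.0099 and 0.017. At least 2-fold higher were 7 and 13 of the 16, against 0.617% and 0.264% of other features. Msmo1 stood at 5.81 CPM at the bottom and 16.4 CPM at the top end in F/R/C (log2 1.5 [0.78 to 2.27]) and at 11.2 and 71 CPM with CP (2.67 [2.52 to 2.82]). Idi1 gave 1.26 [0.81 to 1.71] and 2.0 [1.90 to 2.10], and Hmgcs1 1.26 [0.85 to 1.67] and 1.94 [1.84 to 2.04]. Ebp, which also differed little between the libraries, followed the others least with CP, at 0.21 [0.092 to 0.33]. In F/R/C the intervals of 9 of the 16 lay above 0, and with CP those of 16. Pax7-positive barcodes had medians of 7218 and 20016 UMIs, with summed enzyme levels of 289 and 534 CPM. The score thus rests on fewer UMIs per barcode in F/R/C, and the part of this in the lower F/R/C values was not tested.

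The genes outside the score followed it in part. Insig1 stood at 0.72 [0.21 to 1.25] in F/R/C and 1.41 [1.27 to 1.55] with CP, and Stard4 at 0.81 [0.24 to 1.39] and 1.08 [0.94 to 1.23], both within the range of the enzymes. Insig2, by contrast, was level at -0.060 [-0.49 to 0.37] and -0.057 [-0.17 to 0.053], and so was Scap at -0.023 [-0.60 to 0.55] and -0.044 [-0.24 to 0.15]. Abca1 ran the other way, with 14 UMIs at the bottom and 4 at the top end in F/R/C (-1.78 [-3.84 to -0.10]) and 81 and 19 with CP (-2.19 [-3.00 to -1.46]). Abca1 was thus low where the synthesis genes were high, in sparse counts, and the cause was not tested. Fatty acid genes had medians of 0.18 and 0.59, with Fasn at 0.40 [0.076 to 0.73] and 0.64 [0.52 to 0.75] and Fads2 at 0.015 [-0.44 to 0.47] and 0.85 [0.70 to 0.99]. The ends were alike in depth, with median UMIs of 7137 (top) and 7441 (bottom) in F/R/C and 20173 and 19145 with CP, and the 12 cycling genes had medians of 0.21 and 0.17. The score is a range and not a cell type, and the barcodes of a library are not replicates.

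**Figure D5:**
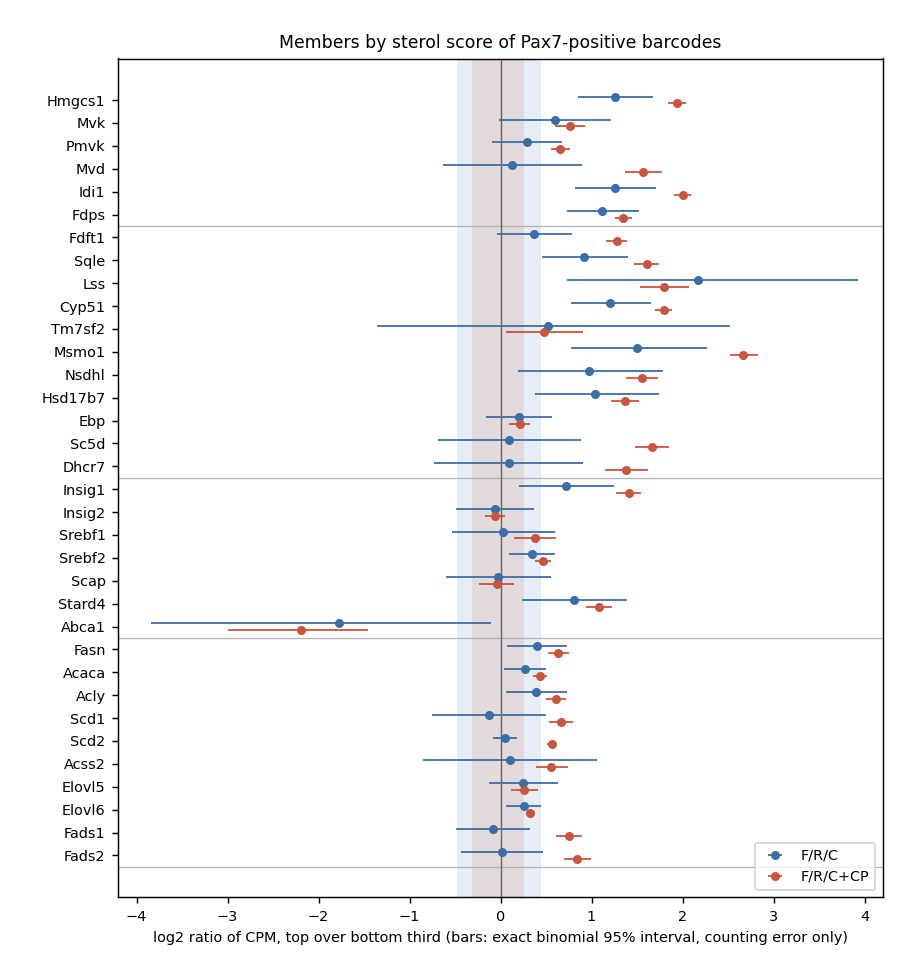
Log2 ratio of CPM in the top over the bottom end of Pax7-positive barcodes ranked by the summed sterol enzymes without the gene itself, for each of the 34 genes in F/R/C (blue) and F/R/C+CP (red), with exact binomial 95% intervals of counting error and shaded bands for the middle 90% of other features. The enzymes, Insig1 and Stard4 lie to the right and Abca1 to the left (-1.78 and -2.19).

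Other genes of the same pathways were read from 2 further lists. Of 12 tested genes of sterol uptake, transport and control, 6 were higher and 6 lower with CP over all kept barcodes, with a median of -0.021. Mylip, the gene of the ligase that marks lipoprotein receptors for breakdown, was past 2-fold (log2 1.10 [0.83 to 1.39]). Of 9 tested genes of fatty acid supply and use, 3 were higher and 6 lower, with a median of -0.51. Slc25a1, which encodes the carrier that brings citrate out of mitochondria for fatty acid synthesis, stood at 25.7 CPM in F/R/C against 8.53 CPM with CP (-1.59 [-1.71 to -1.47]). In Myog-high barcodes it was at 2.66 and 3.39 CPM (0.35 [-0.69 to 1.60]), and in Acta1-high ones at 1.97 and 2.35 CPM (0.25 [-0.92 to 1.73]), so its lower level with CP was not seen there. Mlxipl, the gene of a carbohydrate-sensing lipogenic factor, stood at 0.718 and 3.64 CPM (2.34 [1.71 to 3.06]), and Thrsp, a lipogenic target gene, at 0.646 and 1.53 CPM (1.24 [0.56 to 2.01]), both under the 5 CPM limit. In Acta1-high against Pax7-positive barcodes, 8 and 8 of the 12 sterol neighbours were 2-fold lower in F/R/C and with CP, and 5 and 3 of the 9 lipid neighbours, where 38.1% and 36.2% of all features were.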

How the data were processed

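Droplet single-cell libraries (10x 3' v3.1) of 2 clones were analysed, 1 per group. The authors deposited whole UMI counts for each gene and barcode, produced by Cell Ranger 7.0.0 with GRCm39. Their methods correct for free RNA in the F/R/C+CP library, and none of the sources used here says whether the deposited counts carry that step. STARsolo and Seurat 4.2.1 also stand in the submitters' processing notes.

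Barcodes were kept by the limits of the study: from 250 detected genes up to 4000 without and 7000 with CP, mitochondrial counts of no more than 15% and ribosomal protein counts of no more than 40%. Totals were 36999292 and 313078984 UMIs. Counts were summed per library and gate and divided by their total (CPM). Ratios carry exact conditional binomial intervals and levels exact Poisson intervals, and a count of 0 was set to 3 counts. Features tested had at least 5 CPM in the mean of the libraries and 10 counts over the 2 sums of a comparison, and 2-fold was taken as past. With 1 library per group no p-value was computed. Genes with at least 20 CPM in the mean of the libraries, or past 2-fold with at least 50 counts, were given with their levels. The members and lists were chosen with earlier results of these data known. Scrublet (scanpy 1.11.5, seed 1) called 4 and 299 barcodes as doublets, under its expected rate, so none were removed and the highest scores (176 and 1040 barcodes) were left out as an alternative. The ratio code was checked on simulated data. Python 3.11.15, numpy 2.4.6, scipy 1.17.1 and pandas 2.3.3 were used. Positions come from GENCODE vM21 and RefSeq on the build GRCm38, which is not that of the counts. In all, 13 alternatives were tried.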

Additional observations from a re-analysis of the deposited data

Results flagged for a closer look

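Within a library, some contrasts with Pax7-positive barcodes had opposite signs in the 2 clones, each of which is 1 library, so the difference was not tested. The enzyme median was -0.11 in F/R/C and 0.29 with CP for Myog-high barcodes, and 0.18 and -0.47 for Acta1-high barcodes. Over all features the medians were -0.26 and -0.27 for Myog-high and -0.68 and -0.59 for Acta1-high barcodes. Each enzyme median lay above that of all features. The fatty acid median for cycling barcodes was -0.064 and 0.030, both near 0. Among single genes with both intervals away from 0, Acta1-high barcodes gave 0.37 and -0.68 for Hmgcs1, 0.49 and -0.58 for Fdps, and 1.20 and -0.65 for Msmo1.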

How the results depend on the processing

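No paired analysis was possible because each group holds 1 library, and no replicate could be left out for the same reason. Across 13 alternatives, the enzyme median between the libraries stayed above 0 in every gate, between 0.85 and 1.0 over all kept and between 0.94 and 1.49 in Myog-high barcodes. No mevalonate or sterol gene reached 50 CPM in the mean of the libraries, so that limit gave no enzyme median.

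Beyond the spread of the list, the following values moved, and the cause was not tested. With barcodes of 12000 to 20000 UMIs, the F/R/C medians became 0.17 (enzymes) and 0.22 (fatty acids) for cycling and 0.56 (enzymes) for Acta1-high over Pax7-positive barcodes. With top 20% gates, the F/R/C enzyme median for cycling became 0.10 and the fatty acid median with CP for Myog-high -0.34. Scaled by features at 50 CPM or more, the enzyme medians for Acta1-high became 0.69 in F/R/C and -0.060 with CP, and without the barcode filter the F/R/C one became -0.22. In the comparisons of libraries and gates, single genes reversed in 5 cases. At 12000 to 20000 UMIs these were, between the libraries, Tm7sf2 in cycling (-1.29), Hsd17b7 in Myog-high (-0.038) and Fads1 in Acta1-high barcodes (-0.45), and Abca1 in Acta1-high over Pax7-positive F/R/C+CP barcodes (0.48). With top 5% gates it was Fads2 between the libraries in Myog-high barcodes (-0.20). With 382 instead of 510 F/R/C barcodes at each end of the sterol score, Mvd turned from 0.13 to -0.20, Fads2 from 0.015 to -0.12, Scap from -0.023 to 0.061 and Srebf1 from 0.032 to -0.013, all with intervals that include 0.

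The F/R/C+CP library starts at 12097 UMIs per barcode, so its shallow cells were not analysed here, and ratios of genes under about 10 UMIs in a sum are not resolved.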
